A study of Drosophila melanogaster with 10 samples.

Results

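Elys (Mel-28) domains are stretches of chromatin that were methylated more by Dam-Elys than by unfused Dam in Drosophila melanogaster embryos. All domains of the deposited Dam-Elys list were taken, 19272 in number. Of these, 18226 lie on the chromosome arms 2L, 2R, 3L, 3R, X and 4 and 1046 on separate heterochromatin scaffolds. The windows, the ends and the clusters described here concern the 18226 domains on arms.

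Elys is a nucleoporin that joins the ring of the nuclear pore complex facing the chromatin. At the end of mitosis it binds decondensing chromatin and recruits the other proteins of the pore, and a part of the protein resides in the nucleoplasm. In DamID, a bacterial adenine methylase is fused to a protein of interest, so that DNA near the protein becomes methylated and can be amplified. The unfused methylase shows how open and accessible each site is.

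The samples were embryos aged 16 to 18 h with Dam-Elys, Dam-Lam (the B-type lamin of the nuclear envelope) or Dam alone, with 2 samples of each. All of them carried a pUAST-attB-hsp70-loxP-stop-loxP transgene from the father and received nos-Cre from the mother, which removes the stop cassette early in development, so that the basal hsp70 promoter comes to drive the Dam protein. Each sample pools many whole embryos, hence a domain is an average over mixed cell types. Single-end reads of 100 nt, about 30 M per sample, were obtained after 18 PCR cycles for Dam-Elys and Dam, and 16 for Dam-Lam. Because the replicates were merged before the domains were called, no value below has a replicate error, and no difference was tested. Nor can a list of positions be used to check the labelled fusion protein or stage.

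Elys domains were spread along all the arms. In windows of 500 kb, the covered share (the length inside domains over the length of the window) had a median of 46.0% over 241 windows, with quartiles of 39.2% and 51.4%. The median window held 76 domains, and the extremes were 20 and 122. The median domain length within a window lay between 0.6 and 4.35 kb. Not a single window of this size was free of Elys domains. The lowest windows sat at the ends of arms. Among the 178 windows more than 3 Mb from both ends, the covered share kept within 23.5% and 70.7%, and its SD was 8.58 percentage points, against 11.03 for all windows.

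**Figure D1:**
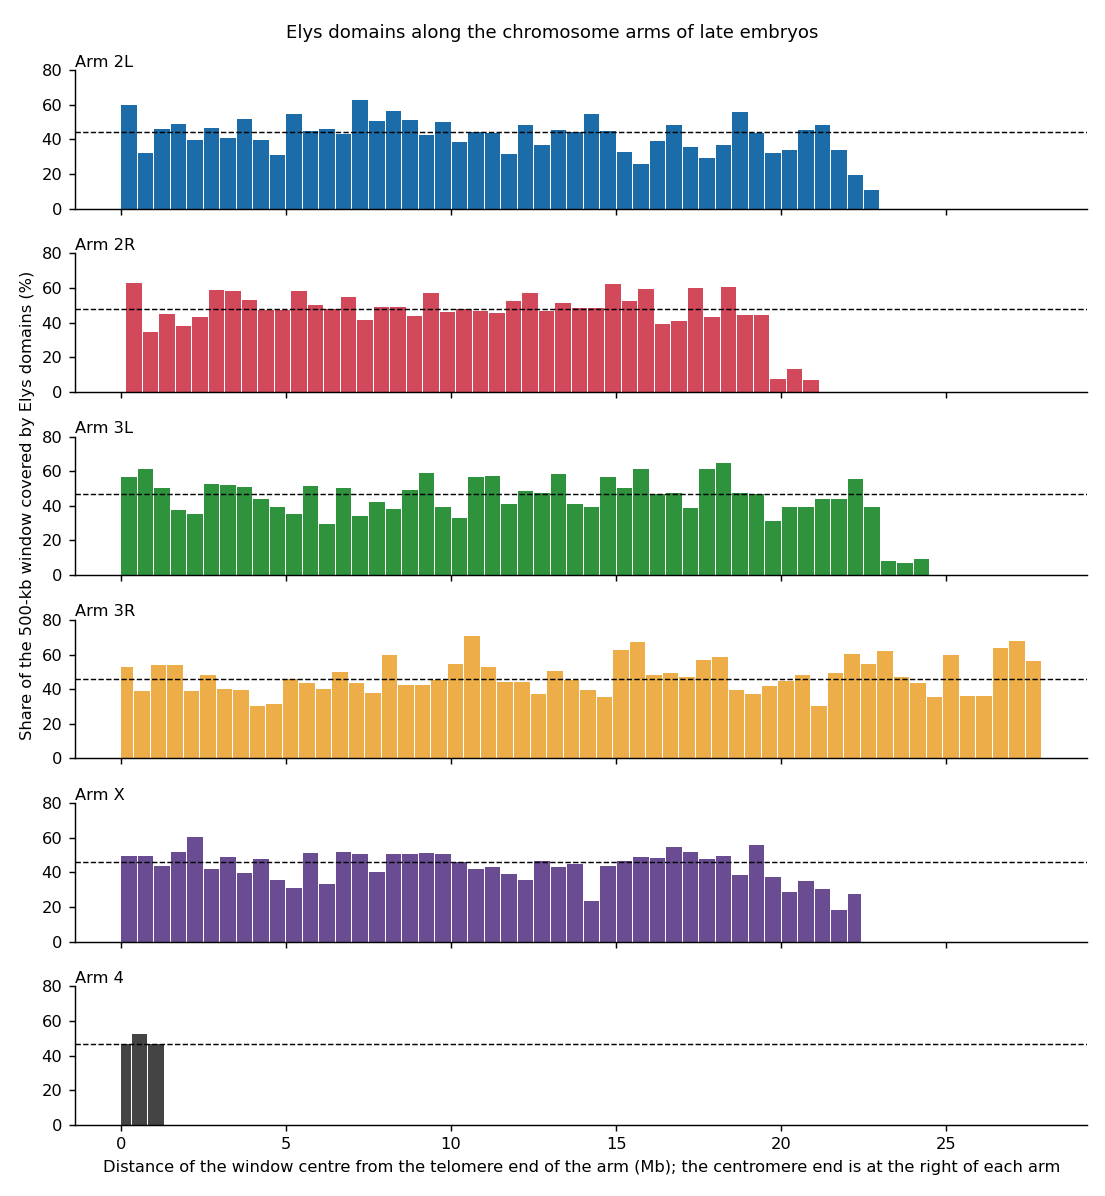
Share of each 500-kb window covered by Elys domains (%), plotted against the distance of the window from the telomere end of the arm (Mb), with the median of the arm as a dashed line. Windows near the centromere end, at the right, fall under 20% on 2L, 2R, 3L and X, while those of 3R stay high.

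The arms differed more in the make-up of their domains than in cover. The X chromosome had the densest and shortest domains, 171 per Mb with a median length of 1.2 kb, and 43.5% of its length was covered. Arm 2R had 139 domains per Mb with a median length of 1.8 kb and a cover of 46.9%. On 2L, 3L and 3R the density was 150, 144 and 155 domains per Mb, the median length was 1.5 kb, and the cover was 42.2%, 44.3% and 47.4%. Hence the order of arms by density was not their order by cover. The small chromosome 4, which is largely heterochromatic although it carries active genes, combined the lowest density of the 6 arms, 115 per Mb, with the highest median length, 2.4 kb, and a cover of 48.9%. The 3 windows of chromosome 4 had covers of 46.5% to 52.6%, within the middle range of the long arms.

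The 3 windows with the highest covered share were all on 3R. They were at 17.0 to 17.5 Mb (70.7% in 70 domains), at 0.5 to 1.0 Mb (67.6% in 64 domains) and at 12 to 12.5 Mb (67.2% in 51 domains) of dm3. Domains of the Dam-Lam profile (lamina-associated domains, LADs) covered 26.3%, 28.3% and 32.6% of these windows, while the median window had a LAD cover of 51.3%. Dam-Elys and Dam-Lam share the Dam control, thus their values stand side by side here and no correlation between them was computed. The 3 lowest windows were 2R at 0 to 0.5 Mb (7.08%), 3L at 23.5 to 24.0 Mb (7.14%) and 2R at 1.0 to 1.5 Mb (7.48%), with LAD covers of 24.3%, 40.2% and 35.98%. All 3 lie at centromere ends. They also had short domains, with medians of 0.6, 0.9 and 0.9 kb.

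Windows with most domains were not those with most cover. The window of X at 8.5 to 9.0 Mb held 122 domains and was 50.9% covered. The windows of 3L and X at 5.0 to 5.5 Mb both held 120 domains, and their covers were 35.5% and 30.9%. In all 3 windows the median domain measured 0.9 kb, so that crowding went with short domains. The fewest domains, 20, were found on 3L at 23.0 to 23.5 Mb (8.04% covered), and the next were the windows of 2R at 1.0 to 1.5 Mb with 28 and of 3L at 23.5 to 24.0 Mb with 29 domains.

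A given cover was thus reached in different ways. Of the 29 windows with 49 to 52% cover, the first 0.5 Mb of X had only 47 domains with a median of 3.9 kb, whereas the window of X at 8.5 to 9.0 Mb needed 122 domains. When windows were divided by the quartiles of their number of domains, the median length of a domain in the median window of each group was 2.4, 1.8, 1.5 and 1.2 kb in order of rising number, and the cover was 43.3%, 46.4%, 47.5% and 46.2%. Single-bin domains, 300 bp long and the shortest the method can give, made up 12.7% of the domains in the median window of the group with the fewest and 23.8% in that of the group with the most. Across the 241 windows, the number of domains and their median length had a Pearson correlation of -0.54 (Spearman -0.58), and in the 178 windows away from the ends it was -0.73 (Spearman -0.74). The number of domains and the cover were related only weakly (0.21 over all windows, -0.09 away from the ends), while the mean length and the cover had 0.69 and 0.68. These values describe windows that share 1 profile and are not independent, and a number, a mean length and a cover measured in the same window are tied by arithmetic.

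**Figure D2:**
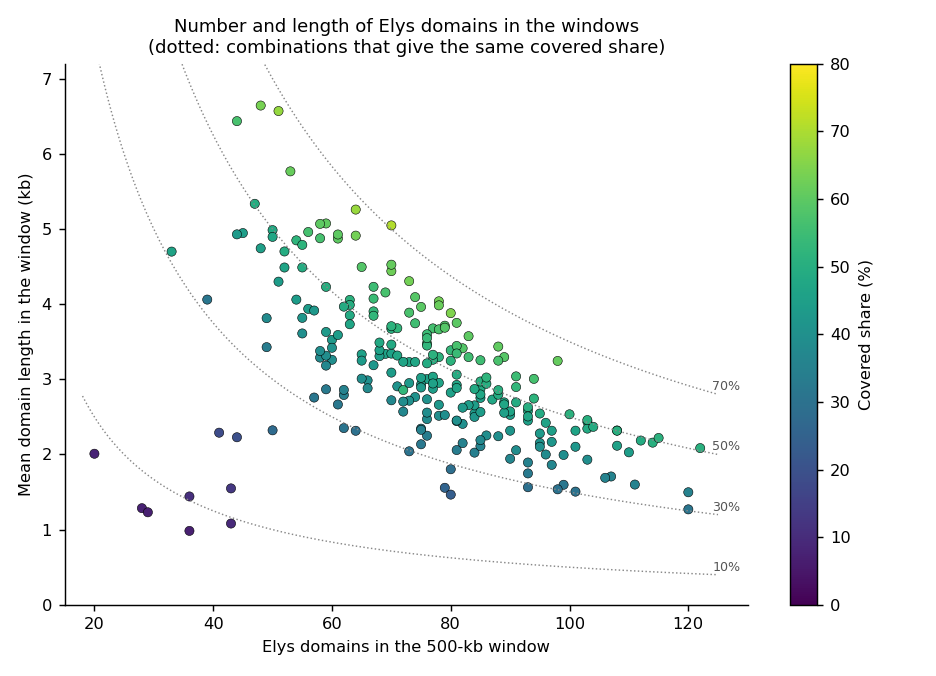
Number of Elys domains in each 500-kb window (horizontal axis) against their mean length in kb (vertical axis), coloured by the covered share; dotted lines join combinations that give the same cover. Most windows lie between the 30% and 70% lines, and some with few and short domains lie near the 10% line. Between them are 6 windows with covers of 20% to 30%.

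The clearest departure along the arms was at their centromere ends, where Elys domains were sparse on 4 of the 5 long arms. Of 241 windows, 9 had a cover under 20%, and all 9 were centred within 1.5 Mb of the centromere end of 2L, 2R, 3L or X. These 9 were among 15 windows of the long arms that lie so close to the centromere end. That end is where the listed arm sequence stops, and heterochromatin scaffolds are listed apart from it. The 1 Mb at the centromere end was covered to 15% on 2L, 10.1% on 2R, 8.65% on 3L and 22.7% on X. The rest of those arms (all that lies over 3 Mb from both ends) was covered to 43.5%, 50.3%, 46.3% and 45.0%. Arm 3R went the opposite way, with 62.0% in the 1 Mb at its centromere end against 46.6% in its rest. The heterochromatin scaffold 3RHet, listed apart from that arm, was covered to 14.9%, and 2RHet and 3LHet to 13.6% and 16.9%. How far each arm sequence reaches towards the centromere was not tested. Over the 5 arms, the mean was 23.7% ± 22.1 at the centromere end and 46.3% ± 2.54 in the rest (SD over arms, which are not replicates), a difference of -22.6 percentage points, or -32.2 without 3R.

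Density and length both contributed to this. The centromere end held 80, 79, 74, 122 and 103 domains per Mb on 2L, 2R, 3L, 3R and X, against 159, 149, 154, 157 and 184 in the rest, which is lower on all 5 arms, 3R included. The mean length of a domain was 1.88, 1.29, 1.17 and 2.20 kb on 2L, 2R, 3L and X, against 2.74, 3.37, 3.01 and 2.44 kb in the rest. On 3R it was 5.08 kb at the centromere end and 2.96 kb in the rest. So 3R had fewer but longer domains there, 4 of them 20 kb or more, while 3L and 2R had none longer than 3.3 and 8.7 kb.

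LADs were present in the same zones, with lower cover than in the rest on 4 of 5 arms. They covered 29.9%, 30.1%, 45.2%, 38.7% and 47.3% of the 1 Mb at the centromere end of 2L, 2R, 3L, 3R and X, against 49.2%, 50.2%, 49.7%, 51.95% and 44.9% of the rest. Reads from repeats were lost in unique mapping, and a bin without reads cannot be told apart from a bin without Elys in a list of domains. Stretches of 15 kb or more with neither an Elys domain nor a LAD took up 31.0%, 35.4%, 11.6%, 0% and 21.4% of those end zones on 2L, 2R, 3L, 3R and X, against 2.61%, 1.47%, 1.77%, 1.21% and 3.41% of the rest. Without such stretches in the length, the mean difference was -19.7 percentage points, with 4 of 5 arms lower at the centromere end. Shorter stretches without reads stayed in the length, so the part of lost reads in the difference was not tested.

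In steps of 100 kb, the change from sparse to ordinary cover was sharp on 2R and 3L. The mean of 5 consecutive steps, going away from the centromere end, first reached 30% for those starting at 1.4 Mb on 2R, 1.3 Mb on 3L and 0.8 Mb on 2L. Up to these points, the steps averaged 9.73%, 8.28% and 9.86%, and none exceeded 20.4%. Single steps rose later: those starting at 1.4 and 1.5 Mb had 1.8% and 40.9% on 2R, and 13.5% and 35.1% on 3L. On 2L the rise was uneven, with 57% at 0.8 Mb and 14.1% at 0.9 Mb. The largest jumps between neighbouring 500-kb windows were close to these places. On 2R the cover was 7.48% on the centromere side of the 1.5 Mb position and 44.6% on the other side, and on 3L it was 8.04% on the centromere side of 23.0 Mb and 39.5% on the other side. The X chromosome had no such gradient, because its last 0.6 Mb had covers of 12% to 51.4% per step and the steps at 0.6 to 0.9 Mb from the end had 3.6%, 2.4% and 0%. LADs covered 10.2%, 7.2% and 8.4% of these same 3 steps.

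**Figure D3:**
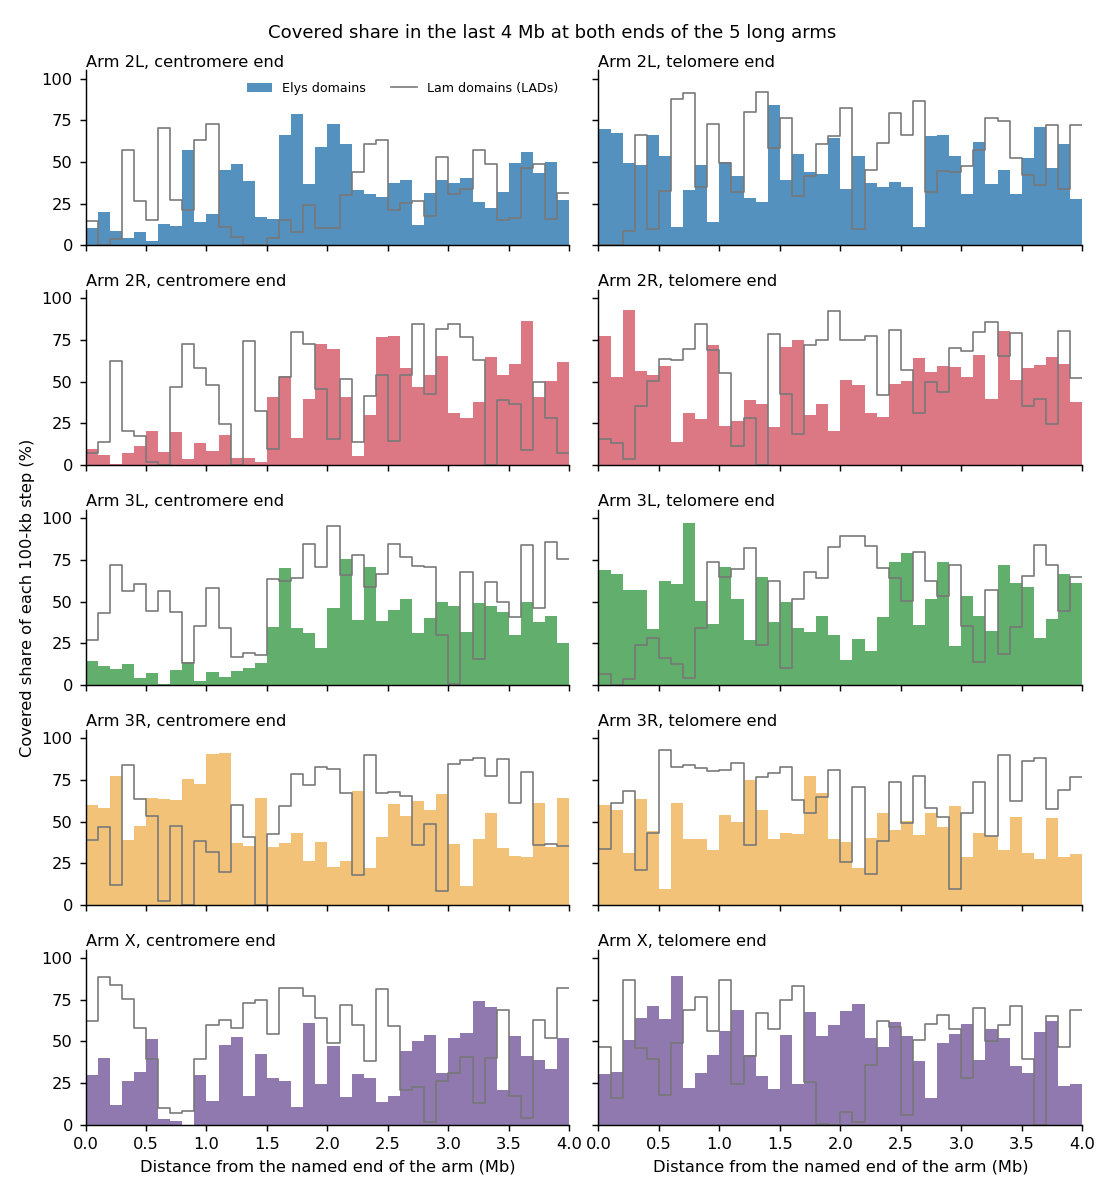
Covered share (%) of 100-kb steps over 4 Mb from the centromere end (left) and the telomere end (right) of the 5 long arms; filled steps are Elys domains and grey lines are LADs. Elys cover is low at the left of the centromere panels of 2L, 2R and 3L, and not of 3R, and is high over the first steps at the telomere of 2L, 2R and 3L.

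In the last 0.5 Mb at the telomere ends, cover was higher than in the rest, most clearly on 2L, 2R and 3L. The last 0.5 Mb was covered to 60.04% on 2L, 66.8% on 2R, 56.6% on 3L, 51.2% on 3R and 49.7% on X, against 43.5%, 50.3%, 46.3%, 46.6% and 45.0% of the rest, which is higher on 5 of 5 arms, with a mean difference of 10.6 percentage points. The difference was 16.6, 16.5 and 10.4 percentage points on 2L, 2R and 3L. It was 4.63 on 3R and 4.68 on X, less than the SD of 8.58 over windows away from the ends. On X, the 100-kb steps starting at 0 and 0.1 Mb from the telomere end had only 30.3% and 31.5%. With a zone of 1 Mb, the covers of 2L, 2R, 3L, 3R and X were 46.0%, 53.8%, 59.0%, 43.8% and 49.6%. The mean difference was then 4.13 percentage points, and 3R was lower than its rest. With a zone of 2 Mb, the mean difference was 2.09 percentage points. The zone thus matters: on 2L the first 0.5 Mb had a cover of 60.04% and the next 0.5 Mb had 31.9%, one of the largest steps on any arm.

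Except on 3R, the higher cover at telomere ends came from long domains. In the last 0.5 Mb, the median domain measured 3.0 kb on 2L, 3.0 kb on 2R, 4.35 kb on 3L and 3.9 kb on X, against 1.5, 1.8, 1.5 and 1.2 kb in the rest, and on 3R it was 1.5 kb in both. There were 122, 114, 88 and 94 domains per Mb on 2L, 2R, 3L and X, against 159, 149, 154 and 184 in the rest. On 3R the density was 176 per Mb at the telomere and 157 in the rest. LADs covered 16.9%, 23.8%, 12.6%, 45.5% and 46.9% of the last 0.5 Mb of 2L, 2R, 3L, 3R and X, against 49.2%, 50.2%, 49.7%, 51.95% and 44.9% of the rest. So the telomere ends of 2L, 2R and 3L stood out by long Elys domains and little LAD cover, that of X by long domains alone, while on 3R the domains were of ordinary length.

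**Figure D4:**
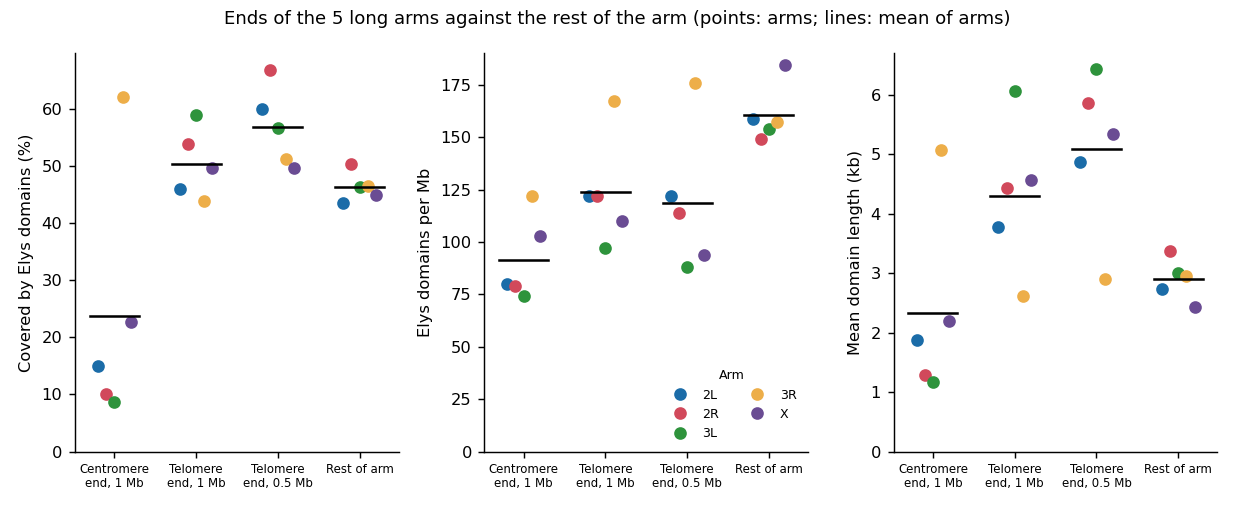
Covered share (%), domains per Mb and mean domain length (kb) in the zones at the centromere and telomere ends and in the rest of the arm; points are the 5 long arms and lines their mean. The centromere zone lies lowest in cover except for 3R (62.0%). The 0.5-Mb telomere zone has the highest mean cover, 56.9%, but is not the highest zone on 3L or 3R.

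Long domains and long Elys-free stretches were unevenly placed. On the 5 long arms there were 185 domains of 20 kb or more. Of these, 19 (10.3%) were within 1 Mb of a telomere end, a zone with 4.20% of the length. They were uneven over arms, with 2, 5, 7, 1 and 4 on 2L, 2R, 3L, 3R and X. Only 5 (2.70%) were within 1 Mb of a centromere end, 4 of them on 3R. Of the 151 stretches of 30 kb or more without an Elys domain, 7 (4.64%) were within 1 Mb of a telomere end, close to the share of the length there, and 31 (20.5%) were within 1 Mb of a centromere end, namely 8, 9, 9, 0 and 5 on 2L, 2R, 3L, 3R and X. On 3R none lay even within 3 Mb of the centromere end.

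The longest domain of each arm was often close to an end as well. On 3R it was 64.5 kb (chr3R:1086601-1151100 of dm3), 1.12 Mb from the centromere end. On 2R it was 63.6 kb (chr2R:20891401-20955000), 0.22 Mb from the telomere end. On 2L it was 40.5 kb (chr2L:102601-143100), 0.12 Mb from the telomere end, and on X 35.7 kb (chrX:588601-624300), 0.61 Mb from it. Only on 3L was the longest domain, of 51.9 kb (chr3L:17960701-18012600), deep inside a long arm. That of chromosome 4 measured 46.5 kb (chr4:1073401-1119900). LADs covered 0%, 6.13%, 0%, 54.6% and 0% of these domains on 3R, 2R, 2L, X and 3L, and 67.1% on chromosome 4.

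The 5 longest stretches without an Elys domain were all close to centromere ends. They measured 143.7 kb (chrX:21510001-21653700), 128.1 kb (chr2R:1308901-1437000), 123.0 kb (chr2L:21416401-21539400), 118.2 kb (chrX:21681901-21800100) and 113.1 kb (chr3L:23810401-23923500). The farthest of them, on 2L, was centred 1.51 Mb from the end. LADs covered 8.35% and 2.28% of the stretches on X, 79.2% of that on 2R, 0% of that on 2L and 54.9% of that on 3L. Thus both kinds occurred, stretches with hardly any domain of either protein and stretches with LADs but no Elys domain. Whether reads were lost in these stretches was not tested. LADs covered 52.6% of the summed length of all 152 Elys-free stretches of 30 kb or more on the arms, and the mean LAD cover of the 241 windows was 49.01%. This pooled value differed by place. On the 5 long arms, LADs covered 37.5% of such stretches within 3 Mb of a centromere end. Within 3 Mb of a telomere end they covered 65.7%.

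Positions of genes in dm3 were at hand for 2L up to 16.5 Mb, where 2513 of the domains lie. The genes under the 10 longest domains in this region were of many kinds. Among them were ush (a cofactor of GATA factors) with MED15 (a subunit of Mediator) and cbt (a zinc-finger factor) in a domain of 30.9 kb, lilli (a nuclear protein of the AF4 family) beside Prx6005 (a peroxiredoxin) in a domain of 30.6 kb, aop (the ETS repressor Yan) in 29.4 kb, numb (an inhibitor of Notch) in 27.3 kb and Cf2 (a zinc-finger factor) in 26.4 kb. LADs covered none of the domains of ush, lilli, aop and numb and 2.27% of that of Cf2. A domain of 30.3 kb (chr2L:12479401-12509700) lay inside bun, which encodes a TSC22-family protein, and 19.8% of it was in LADs.

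The longest domain there, of 40.5 kb, spanned 11 genes, such as Sam-S (S-adenosylmethionine synthetase), Gs1 (glutamine synthetase) and Nhe1 (a sodium/proton exchanger) and had no LAD. The domain of 34.2 kb (chr2L:1403401-1437600) overlapped lea, the axon guidance receptor Robo2, and was 38.6% in LADs. A domain of 31.2 kb (chr2L:5878501-5909700) held Acp26Aa and Acp26Ab, which encode seminal fluid proteins of the male accessory gland, beside bchs, and was 44.2% in LADs. The remaining domain, of 30.3 kb (chr2L:1456201-1486500), overlapped no listed gene and was 51.5% in LADs. The LAD cover of these 10 domains thus lay between 0% and 51.5%. The study's gene list was held only in part, so no enrichment was computed.

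In the same region of 2L, 14 stretches of 30 kb or more had no Elys domain, and their genes were looked up after their lengths were known. The longest, of 110.4 kb (chr2L:4472701-4583100), overlapped dp, which encodes the giant extracellular matrix protein Dumpy, and 88.6% of it was in LADs. A stretch of 36 kb lay inside ds (the cadherin Dachsous) with 75% in LADs, and a stretch of 30.9 kb reached into the same gene. A stretch of 32.4 kb contained the gustatory receptor genes Gr22a, Gr22b, Gr22c and Gr22d and was 45.4% in LADs. Not all were of this kind, since the stretch of 84.0 kb that reaches CycE (cyclin E) was 8.57% in LADs and that of 30.9 kb which overlaps snRNP-U1-70K and uif had none.

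Domain lengths were very uneven. The longest 10% of domains held 43.1% of the covered length on the arms, and the shorter 50% held 11.6%. Domains of 20 kb or more, 188 in number, held 9.32% of the covered length, and the 3421 domains of a single bin held 1.90%. By class of length, those of 3 to under 6 kb held 23.1%, those of 6 to under 12 kb held 26.4% and those of 12 to under 20 kb held 16.0%.

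**Figure D5:**
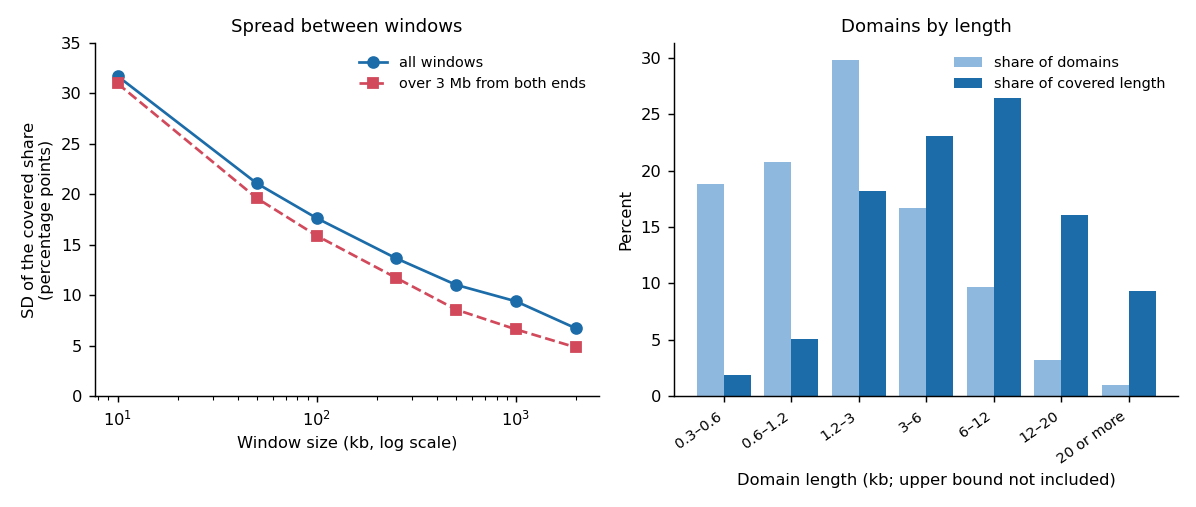
Left, SD of the covered share (percentage points) against window size (kb, log scale) for all windows and for those over 3 Mb from both ends. Right, percent of the domains (light) and percent of the covered length (dark) in each class of domain length in kb; single-bin domains make up 18.8% of the domains and 1.90% of the length.

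At the scale of single domains, many Elys domains were separated by short gaps and lay in short chains. A bin without reads would also appear as a gap, and the list cannot tell the cases apart. How many short gaps split a single bound stretch was therefore not tested. Of 18220 gaps between neighbouring domains, 34.4% were a single bin, 17.0% were longer but not over 900 bp, 38.9% were over 900 bp but under 10 kb, and 9.70% were 10 kb or more. Here a chain denotes domains joined over gaps of up to 900 bp. Chains numbered 4164, took in 74.2% of domains and 64.4% of the covered length, and had a median span of 6 kb. The other 4699 domains stood alone, with a median length of 2.7 kb. A chain of 2 domains was the commonest, with 45.7% of chains, and 700 chains had 5 domains or more. Chaining was most frequent on X (79.5% of domains) and least on chromosome 4 (56.6%), and on 2L, 2R, 3L and 3R it lay within 72.3% and 73.9%.

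The largest chains differed in build. The longest on any arm spanned 100.5 kb at the telomere end of 2R (chr2R:20885701-20986200), where 11 domains filled 95.2% of the span, and it contained the longest domain of that arm. Next was a chain of 84.0 kb on 3L (chr3L:17950501-18034500), with 10 domains and 95.4% filled. The longest chains of 3R, 2L, 4 and X spanned 78.3, 68.4, 60 and 56.7 kb and had 4, 11, 2 and 9 domains. The share of the span inside domains was 98.9%, 93.4%, 98.5% and 92.6%. The chain with most domains, 16, spanned 56.1 kb on 3L (chr3L:22164001-22220100), was 87.7% filled and lay 2.33 Mb from the centromere end, with 68.4% in LADs. Chains of 15 domains lay on 3L (chr3L:11278801-11322900) and X (chrX:11385601-11429100), and LADs covered 16.3% and 0% of them.

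Within 10 kb of its midpoint, a domain had a median of 3 others, with quartiles of 2 and 5. On X the median was 4, and 27.8% of its domains had 6 or more neighbours, while no domain of chromosome 4 had more than 5. Domains without any neighbour made up 7.82% on the arms together, 5.06% on X and 11.8% on chromosome 4. The most crowded sites, with 14 neighbours, were around 2 adjacent domains of 3L (chr3L:5197201-5198700 and chr3L:5199001-5199900), inside 1 of the windows with most domains, and at chr3R:10789501-10790400. As a long domain takes up room, a count of midpoints is lower around it.

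The uneven cover of small windows averaged out over larger ones. The SD of the covered share was 31.7 percentage points in windows of 10 kb, 17.6 in 100 kb, 11.03 in 500 kb and 6.72 in 2 Mb, and away from the ends 31.0, 15.9, 8.58 and 4.83. Of the 10-kb windows, 12.5% had no Elys cover and 5.39% were entirely covered. Of the 1202 windows of 100 kb, 1 had none. The variation therefore lay mostly below 100 kb. Windows of 500 kb next to each other had a Pearson correlation of 0.41 in cover over 235 pairs, and 0.19 over 173 pairs away from the ends. At a distance of 1 Mb the values were 0.17 (229 pairs) and 0.03 (168 pairs). The median change of cover between neighbouring windows was 8.14 percentage points, and 19 of 235 changes exceeded 20.

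On the heterochromatin scaffolds 2RHet, 3LHet and 3RHet, Elys cover was low and the domains were short. Here too, reads from repeats were lost in unique mapping. Elys domains covered 13.6% of 2RHet, 16.9% of 3LHet and 14.9% of 3RHet up to the last domain of either protein. Their median lengths were 0.75, 0.6 and 0.6 kb. Their density was 105.5, 130 and 142 domains per Mb, above that of the centromere ends of 2L, 2R and 3L. LADs covered 27.6%, 36.8% and 37.1% of these scaffolds. XHet had 10 Elys domains, 1 of them 30 kb long, and 36.6% cover, while 2LHet and YHet had no Elys domain but 73 and 59 LADs.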

How the data were processed

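The authors mapped the reads of each DamID sample uniquely to dm3/R5 with Bowtie2, counted them with HTSeq-count in bins of 300 bp, merged the replicates, scaled them to RPM, divided them by Dam and took log2. They called Elys domains with a hidden Markov model. The deposited values used here are other than a read profile: start and end positions of domains in bp, with no score or read count. The domain lists are 1 per protein, so depth, replicate spread and tests are lacking.

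Arms were cut into windows of 500 kb from position 0, and a last window under 250 kb was left out. A domain was counted where its midpoint lies. An arm ended at position 0 and at the last domain of either protein, and the centromere end is the high end of 2L, 3L and X and the low end of 2R, 3R and 4. The rest of an arm lies over 3 Mb from both ends. Chains were joined over up to 900 bp. Named were the 3 windows at each extreme of cover and number, the longest domain and chain of each arm, the 5 longest Elys-free stretches, and genes under the 10 longest domains of 2L with listed positions. Other names were chosen after their values were seen. Alternatives changed the window, the end zone, the shortest domain, the filling of gaps, the length counted, the chain gap and the reach. The members and lists were chosen with earlier results of these data known. RNA-seq samples were not used here. The steps were tested on simulated domains. Python 3.11.15, NumPy 2.4.6, pandas 2.3.3, SciPy 1.17.1 and Matplotlib 3.10.9 were used.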

Additional observations from a re-analysis of the deposited data

How the results depend on the processing

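Of 40 alternative values of 8 results, 30 stayed within the spread used to judge them, 10 moved and 0 changed sign. The spread was the SD over the 5 long arms, 1.5 times for counts, or a 95% binomial interval for shares. That interval treats neighbouring gaps and domains as independent, which they are not, so for shares the label moved means little. Only the end differences were able to change sign. For the centromere difference of -22.6 percentage points the spread was 22.5, and for the telomere difference of 4.13 it was 5.58. At the ends, staying within the spread therefore says little about the size of the difference. Filling gaps of up to 900 bp gave a median cover of 49.1% in place of 46.0% and a median of 37 domains per 500 kb in place of 76, since the filling joins domains. The SD of cover over windows was 13.7 percentage points in windows of 250 kb and, chosen after seeing the data, 8.58 in windows over 3 Mb from both ends, against 11.03. The telomere difference was 10.6 percentage points with an end zone of 0.5 Mb against 4.13 with 1 Mb and 2.09 with 2 Mb. With only domains of at least 0.6 kb, 23.1% of gaps were a single bin and 59.8% of domains lay in chains, against 34.4% and 74.2%. Chains joined over at most 300 or 1500 bp held 56.0% and 80.1% of domains. A reach of 20 kb gave a median of 7 neighbours, against 3. At the centromere ends, 4 of 5 arms were lower under each of 5 other settings, with means between -24.5 and -17.0 percentage points. These were both other zones, domains of at least 0.6 kb, filled gaps, and stretches with no domain of either protein left out. No paired analysis was possible because the deposited domains come from merged replicates, and for the same reason no replicate could be left out. Lists without read counts set no limit on depth.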

Other observations

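Short domains stood closer together than longer ones, up to a length of about 6 kb. A single-bin domain was flanked by a gap of a single bin on 48.8% of its sides, a domain of 0.6 to under 1.2 kb on 43.2%, and one of 3 to under 6 kb on 25.01%, while it was 28.2% for those of 20 kb or more. The median flanking gap was 0.6 kb for single-bin domains, 2.1 kb both for those of 3 to under 6 kb and for those of 6 to under 12 kb, 1.8 kb for those of 12 to under 20 kb and 1.5 kb for those of 20 kb or more. Single-bin domains had a median of 5 other domains within 10 kb, those of 3 to under 6 kb had 2, and those of 20 kb or more had 0, where the length of the domain itself lowers the count. The median length of the next domain was 0.9 kb after a single-bin domain and 3.0 kb after one of 20 kb or more. Across 18220 pairs, the lengths of neighbouring domains had a Spearman correlation of 0.26, and the length of a domain and the gap after it had 0.24. A gap and the next gap had only 0.08 across 18214 pairs. These pairs share 1 profile and are not independent. As for the chains, short gaps due to bins without reads could not be told apart.

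The variance of the number of domains over its mean was 1.30 in windows of 10 kb, 2.55 in 100 kb, 4.42 in 500 kb and 10.3 in 2 Mb. In windows over 3 Mb from both ends it was 1.30, 2.40, 3.30 and 4.15.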
